A study of Mus musculus with 19 samples.

Results

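Purkinje cells are the output neurons of the cerebellar cortex, and the genes described here are 30 that mark these cells or carry their signaling: Purkinje-enriched proteins, calcium buffers, the machinery that makes and reads inositol trisphosphate (IP3), calcium channels, transcription factors, and a group of transporters, enzymes and membrane proteins. They were taken by name from the 22193 genes of the deposited tables, and all 30 were present. In a Purkinje cell, glutamate from parallel fibers leads through G proteins to the activation of phospholipase C beta. The IP3 that results opens receptors on the endoplasmic reticulum, and buffers such as calbindin shape the calcium signal that follows. The gene removed in these mice, Gnas, makes Gsα, which links receptors to adenylyl cyclase and so to cAMP.

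RNA was sequenced from the whole cerebellum of 19 C57BL/6 mice at postnatal day 60. Olig1-Gnas mice (n = 8) carried a conditional knockout of Gsα made by Olig1Cre, a Cre recombinase under control of Olig1 sequences. hGFAP-Gnas mice (n = 8) carried a knockout of the same gene made by hGFAPCre, which is driven by a human GFAP promoter. Ctrl mice (n = 3) were wild type, so a Cre-only effect cannot be told apart from that of the knockout. The series title places the study in Sonic hedgehog-driven medulloblastoma, a tumor of cerebellar granule cell precursors. Levels are FPKM, fragment counts that the authors scaled by transcript length and library total, so levels of different genes can be set side by side per length.

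Libraries differed in depth and in makeup. Depth read from the steps of the lowest FPKM values was 0.812 to 1.04 times that of Ctrl 2 in 10 deeper libraries (Olig1-Gnas 5 to 8, hGFAP-Gnas 1 to 4, Ctrl 1 and 2) and 0.275 to 0.441 times in the 9 shallower ones. Y-linked Ddx3y passed 1 FPKM in 2 Olig1-Gnas libraries (of 8), in 7 of the hGFAP-Gnas group and in 2 of the 3 Ctrl mice. Gnas was listed at 0 in 3 Olig1-Gnas and 7 hGFAP-Gnas libraries and up to 121 FPKM in the others, but also at 0 in Ctrl 3 beside 651 and 798 FPKM in Ctrl 1 and 2, so this listing does not check the labels. The summed FPKM of 15 genes of granule cell progenitors and proliferation was 1748 to 3174 in Olig1-Gnas, 121 to 2372 in hGFAP-Gnas and 64.1 to 74.9 in Ctrl. hGFAP-Gnas 1, at 121, stood apart from its group and nearest to Ctrl.

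In Ctrl cerebella the members spanned a wide range of levels. Pcp4 was the most abundant at 1099 ± 168 FPKM, followed by Pvalb at 852 ± 181 and Pcp2 at 845 ± 275 (SD, n = 3). Foxp2 was the lowest at 2.004 ± 0.214 FPKM, below Skor2 at 5.59 ± 1.53 and Ryr1 at 6.00 ± 1.10 (SD, n = 3). The order of neighbours such as Pvalb and Pcp2, or Skor2 and Ryr1, lay within the spread of the 3 libraries. Every member averaged at least 1 FPKM in Ctrl, as the labelled tissue would hold.

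Promoters of 20 of the 30 members were in the RefSeq promoter table (GRCm38.p6), as 33 windows of 250 bases before a gene start. The motif AGGTCA, the core site read by many nuclear receptors and by RORA, lay on either strand in 8 of the 33 windows (24.2%) and in 14.0% of 32851 windows of all genes. Of those 8 windows 3 belong to Pcp2, and 2 of these overlap and hold the same site. Counted by gene, 6 of the 20 members had the motif in a window, beside 15.8% of 27025 genes. TGACGTCA, the cAMP response element, lay in 0 of 33 windows and in 1.55% of all. Its core TGACG, which also lies within the full element, lay in 6 windows (18.2%) and in 17.8% of all, and the E-box CANNTG in 16 (48.5%) and in 66.2% of all. A match describes letters and not a bound site. The windows of the 2 genes named for this cell type are shown because both hold AGGTCA, in capitals, in Pcp4 as its reverse complement. The Pcp2 window is that of its most upstream start, at chr8:3625548-3625797 on the minus strand, with the motif at position -12 from the start. The Pcp4 window is chr16:96467356-96467605 on the plus strand, with the motif at position -164 from the start.
Pcp2: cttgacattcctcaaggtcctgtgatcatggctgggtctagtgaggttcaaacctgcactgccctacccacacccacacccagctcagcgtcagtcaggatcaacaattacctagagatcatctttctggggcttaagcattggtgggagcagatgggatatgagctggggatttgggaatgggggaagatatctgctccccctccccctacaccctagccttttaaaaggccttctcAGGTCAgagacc
Pcp4: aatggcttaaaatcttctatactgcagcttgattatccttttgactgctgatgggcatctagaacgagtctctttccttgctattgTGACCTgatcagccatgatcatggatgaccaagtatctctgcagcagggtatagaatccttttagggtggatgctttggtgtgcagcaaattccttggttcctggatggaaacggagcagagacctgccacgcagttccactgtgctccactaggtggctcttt

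Most Purkinje genes were called lower in both knockouts, and Car8 in Olig1-Gnas alone; Mtss1, Lhx1, Ebf1 and Foxp2 were called lower in neither. In Olig1-Gnas against Ctrl, 26 of the 30 members were called lower, 2 higher (Lhx1 and Ebf1) and 2 not called (Foxp2 and Mtss1), where a call is an adjusted p under 0.05 with limma over all tested genes. The background was large, with 59.8% of 14183 tested genes called, 23.6% lower and 36.2% higher. The members' median difference was -3.33 on the log2(FPKM + 1) scale, beside 0.22 over all tested genes. That scale understates the change of genes with few FPKM. All 30 members passed the filter on low values (1 FPKM in at least 3 libraries), but Ryr1, Lhx5, Skor2 and Casq2 passed in Olig1-Gnas only through their Ctrl levels, so that their calls there are no support for the count. Of the other 26 members, 22 were called lower.

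In hGFAP-Gnas against Ctrl, 25 members were called lower, 1 higher (Foxp2) and 4 not called (Car8, Lhx1, Ebf1 and Mtss1). Here 38.9% of 14305 tested genes were called, 12.8% lower and 26.1% higher. The members' median difference was -2.31, beside 0.19 over all. The calls, more than the size of the differences, hang on few libraries, over all genes as in the members. With all libraries, 1832 of all tested genes were called lower. Members called lower were 1, 2 and 5 without Ctrl 1, 2 or 3, beside 197, 137 and 426 of all tested genes. They were 15 or 16 without any one of hGFAP-Gnas 3 to 6, beside 1192 to 1425 of all tested genes. Without hGFAP-Gnas 1, 26 members were called lower and 3 higher, beside 2760 and 5404 of 14214 tested genes. Within the deeper libraries alone, and within the shallower ones alone, 0 members were called lower. Over all genes, 0 of 13872 were called lower in the deeper libraries and 328 of 13494 in the shallower ones. The members' median difference was -2.26, -2.33 and -2.37 without Ctrl 1, 2 or 3, -2.25 in the deeper libraries and -2.18 in the shallower ones. Of the Ctrl group, the deeper libraries include only Ctrl 1 and 2 and the shallower ones only Ctrl 3. Few calls within a depth class therefore do not show that the difference is absent there. Both comparisons share the same 3 Ctrl mice.

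Single libraries were also set side by side without that test. All 8 Olig1-Gnas libraries lay below all 3 Ctrl libraries in 26 members and above them in 1 (Ebf1), where 21.5% and 32.2% of all tested genes did so. Of the 26 members that passed the filter without help from Ctrl, 22 lay below. All 8 hGFAP-Gnas libraries lay below Ctrl in 21 members and above in 1 (Foxp2), beside 8.56% and 15.2% of all tested genes. In whole cerebellum, fewer Purkinje cells and less RNA per Purkinje cell cannot be told apart.

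**Figure D1:**
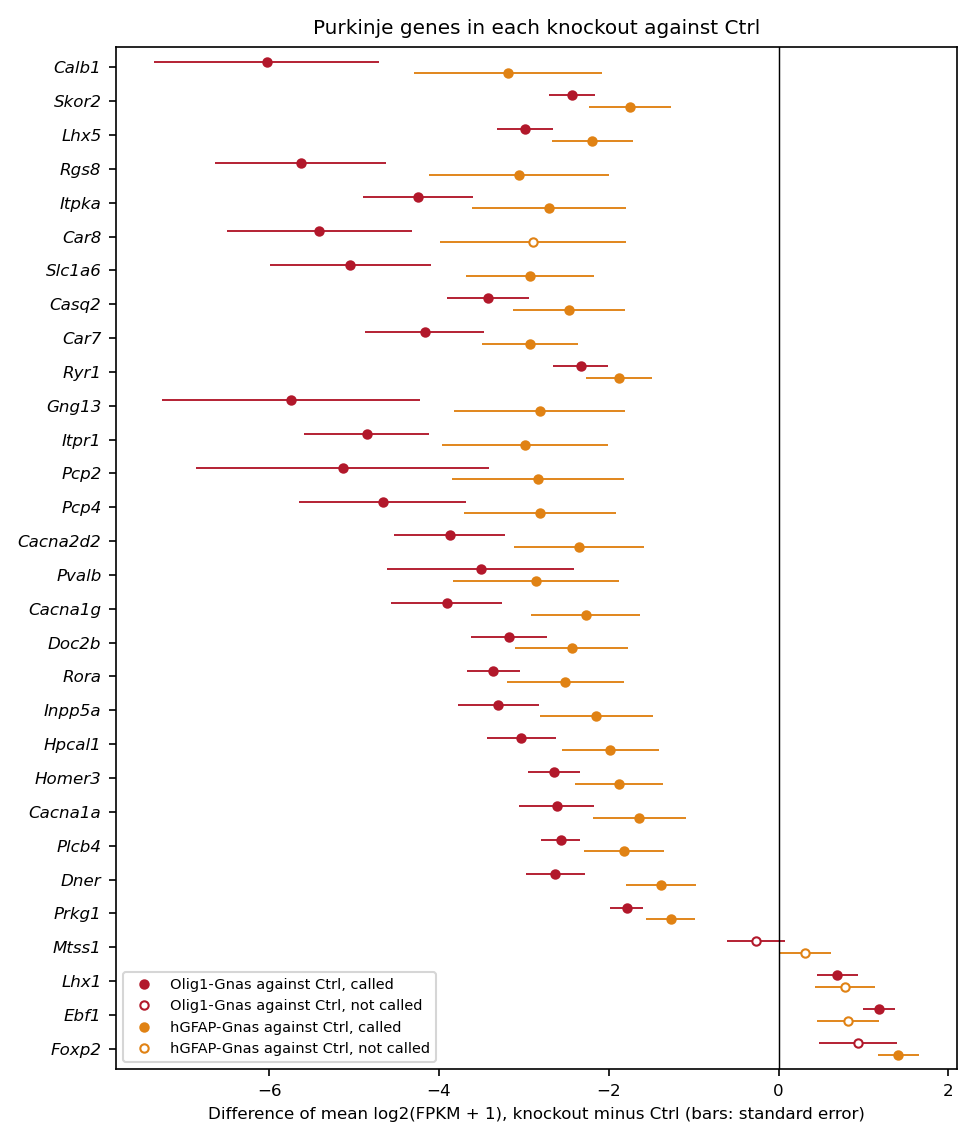
Difference of mean log2(FPKM + 1) between knockout and Ctrl for the 30 Purkinje genes (points, with standard errors as bars; red, Olig1-Gnas; orange, hGFAP-Gnas; open points, not called at an adjusted p under 0.05). Genes run from the lowest to the highest median rank of retained share; 26 red points and 25 orange points are called lower, and Mtss1, Lhx1, Ebf1 and Foxp2 stand apart at the bottom.

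Pcp2, a modulator of Gi/o proteins found almost wholly in Purkinje cells within the brain (chr8:3621550-3625545, mm9, as the authors' tables print all loci given here), ranged from 0 to 207 FPKM in Olig1-Gnas (median 43.0) and from 22.1 to 535 FPKM in hGFAP-Gnas (median 102), against 1060, 940 and 536 FPKM in Ctrl. No knockout library reached the lowest Ctrl library. The log2 difference was -5.14 ± 1.72 (SE) in Olig1-Gnas (adjusted p = 0.0261) and -2.83 ± 1.01 in hGFAP-Gnas (adjusted p = 0.0453). In Olig1-Gnas 2 and 4 it was listed at 0, while Olig1-Gnas 1 and 3 held 51.6 and 60.6 FPKM. The tables print the same locus for Pcp2 and the neighbouring 2900053A13Rik, which was at 22.1 FPKM in Olig1-Gnas 4 and at 0 in Olig1-Gnas 2, so reads may be split between them and the low Pcp2 values are uncertain. Relative to Pcp4 it stood at 0 to 6.83 in Olig1-Gnas, 0.466 to 0.908 in hGFAP-Gnas and 0.591 to 0.875 in Ctrl. The Olig1-Gnas call was lost in 7 of the 23 alternative settings tried, with adjusted p-values between 0.000843 and 0.197 over all of them. Gng13, Rora, Homer3, Ryr1, Inpp5a, Dner and Prkg1 also share a printed locus with other genes. Reads may be split there too, and the effect on their levels and shares was not tested.

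Pcp4, a small protein that binds calmodulin, has a locus of its own in the tables (chr16:96689212-96747400) and gave the steadier reading. It ranged from 7.84 to 277 FPKM in Olig1-Gnas (median 39.7) and from 27.1 to 589 FPKM in hGFAP-Gnas (median 144), against 1211, 1180 and 906 FPKM in Ctrl. The groups did not overlap. Its log2 difference was -4.66 ± 0.98 in Olig1-Gnas (adjusted p = 0.00215) and -2.81 ± 0.90 in hGFAP-Gnas (adjusted p = 0.0311).

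Among the calcium buffers, Calb1 (chr4:15808410-15833856), which encodes calbindin, had the most negative difference of the 30 members on the log2(FPKM + 1) scale against Ctrl in both knockouts. It stood at 0.0476 to 71.5 FPKM in Olig1-Gnas (median 2.02) and at 5.53 to 214 FPKM in hGFAP-Gnas (median 38.8), against 453, 353 and 226 FPKM in Ctrl. Olig1-Gnas libraries fell into 6 at most 2.55 FPKM and 2 (numbers 7 and 8) at 54.2 and 71.5. The log2 difference was -6.03 ± 1.33 in Olig1-Gnas (adjusted p = 0.00282) and -3.19 ± 1.11 in hGFAP-Gnas (adjusted p = 0.0416). Calb1 kept a smaller share of its Ctrl mean than Pcp4 in 14 of the 16 knockout libraries, and the ratio of their FPKM was 0.00608 to 0.303 in Olig1-Gnas, 0.0737 to 0.383 in hGFAP-Gnas and 0.2499 to 0.374 in Ctrl.

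Pvalb, encoding parvalbumin, which inhibitory interneurons of the molecular layer also hold, did not keep step with the other buffers. It ranged from 11.98 to 358 FPKM in Olig1-Gnas (median 112) and from 32.2 to 588 FPKM in hGFAP-Gnas (median 104), against 1015, 885 and 657 FPKM in Ctrl. Its highest values in Olig1-Gnas, 358 and 250 FPKM, came from libraries 1 and 2, where Calb1 stood at 1.43 and 0.357 FPKM. There Pvalb was 8.80 and 6.53 times Pcp4, beside 0.725 to 0.837 times in Ctrl. The same libraries had the highest summed microglia and macrophage markers, 3297 and 2747 FPKM over 15 genes, beside 920 to 1235 FPKM in the other 6 Olig1-Gnas libraries. The interneuron list summed to 70.9 and 66.9 FPKM in them, within the 22.0 to 210 FPKM of the other 6 libraries, and its part in the Pvalb level was not tested. Pvalb was called lower in Olig1-Gnas (log2 difference -3.51 ± 1.10, adjusted p = 0.0187) and in hGFAP-Gnas (-2.86 ± 0.98, adjusted p = 0.03998), and the Olig1-Gnas call was lost without Ctrl 1 (adjusted p = 0.0642) or Ctrl 2 (0.0591).

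Casq2, a calcium-storing calsequestrin, ranged from 0.113 to 4.55 FPKM in Olig1-Gnas and from 0.446 to 9.47 FPKM in hGFAP-Gnas, against 15.1 to 23.4 FPKM in Ctrl. Hpcal1, a neuronal calcium sensor, kept more, at 11.4 to 56.1 FPKM in Olig1-Gnas and 19.9 to 143 FPKM in hGFAP-Gnas, against 165 to 232 FPKM in Ctrl. Both were called lower in each knockout, with log2 differences of -3.43 and -3.03 in Olig1-Gnas and -2.46 and -1.98 in hGFAP-Gnas. Casq2 passed the filter in Olig1-Gnas only through its Ctrl levels, so its call there is no separate support.

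The genes of IP3 signaling were all called lower in Olig1-Gnas, and all but Car8 in hGFAP-Gnas. Itpr1, the IP3 receptor (chr6:108163089-108501108), stood at 6.06 to 82.4 FPKM in Olig1-Gnas (median 13.1) and at 9.68 to 321 FPKM in hGFAP-Gnas (median 82.0), against 655, 531 and 506 FPKM in Ctrl. No knockout library overlapped Ctrl. Its log2 difference was -4.85 ± 0.74 in Olig1-Gnas (adjusted p = 0.000235) and -2.99 ± 0.98 in hGFAP-Gnas (adjusted p = 0.0338). Car8, a carbonic anhydrase-related protein that binds this receptor and lowers its affinity for IP3, stood at 0.665 to 43.4 FPKM in Olig1-Gnas (median 1.82) and 3.33 to 201 FPKM in hGFAP-Gnas (median 29.1), against 283, 204 and 179 FPKM in Ctrl. All Olig1-Gnas libraries were below Ctrl, and 1 hGFAP-Gnas library, number 1, lay within it. Car8 was called lower in Olig1-Gnas (log2 difference -5.41 ± 1.09, adjusted p = 0.00154) and missed the threshold in hGFAP-Gnas (-2.89 ± 1.09, adjusted p = 0.0542).

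Both enzymes that remove IP3 were lower, to different extents. Itpka, the kinase that phosphorylates IP3, ranged from 0.0791 to 6.76 FPKM in Olig1-Gnas and from 0.745 to 22.4 FPKM in hGFAP-Gnas, against 22.4 to 60.6 FPKM in Ctrl. Inpp5a, the 5-phosphatase, ranged from 9.68 to 45.9 FPKM in Olig1-Gnas and from 16.6 to 126 FPKM in hGFAP-Gnas, against 121 to 228 FPKM in Ctrl. hGFAP-Gnas 1 overlapped Ctrl for Inpp5a, and no other knockout library did for either gene. As a share of its own Ctrl mean, Itpka was below Inpp5a in all 16 knockout libraries. Ryr1, a ryanodine receptor that releases stored calcium, stood at 0.00837 to 1.77 FPKM in Olig1-Gnas and 0.143 to 2.75 FPKM in hGFAP-Gnas, against 5.21 to 7.26 FPKM in Ctrl, with no overlap. The 3 genes were called lower in both knockouts, with log2 differences of -4.24, -3.30 and -2.33 in Olig1-Gnas and -2.70, -2.14 and -1.88 in hGFAP-Gnas, in the order Itpka, Inpp5a, Ryr1. Of these, Ryr1 passed the filter in Olig1-Gnas only through its Ctrl levels, so its call there is no separate support.

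Upstream of IP3, Plcb4, the phospholipase C beta of many Purkinje cells, stood at 9.09 to 22.5 FPKM in Olig1-Gnas (median 13.3) and at 12.1 to 71.7 FPKM in hGFAP-Gnas (median 19.8), against 91.3, 79.8 and 89.5 FPKM in Ctrl. Homer3, a postsynaptic scaffold that binds the IP3 receptor, stood at 20.0 to 52.4 FPKM in Olig1-Gnas (median 23.9) and 22.7 to 120 FPKM in hGFAP-Gnas (median 43.7), against 239, 188 and 133 FPKM in Ctrl. Knockout libraries of both genes were clear of Ctrl. Plcb4 had log2 differences of -2.57 ± 0.23 in Olig1-Gnas (adjusted p = 2.04e-06) and -1.82 ± 0.47 in hGFAP-Gnas (adjusted p = 0.0157). Itpr1 kept a smaller share of its Ctrl mean than Homer3 in 15 of the 16 knockout libraries and than Plcb4 in 15.

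Of the other signaling proteins, Rgs8, which speeds GTP hydrolysis by G proteins, was among those that kept least. It ranged from 0.181 to 35.2 FPKM in Olig1-Gnas (median 2.62) and from 5.59 to 207 FPKM in hGFAP-Gnas (median 36.2), against 362, 234 and 221 FPKM in Ctrl, without overlap. The log2 difference was -5.63 ± 1.00 in Olig1-Gnas (adjusted p = 0.000719) and -3.06 ± 1.06 in hGFAP-Gnas (adjusted p = 0.0411). Gng13, a G protein gamma subunit, stood at 0 to 140 FPKM in Olig1-Gnas (median 6.39) and 8.89 to 297 FPKM in hGFAP-Gnas (median 96.4), against 532, 445 and 428 FPKM in Ctrl. Its zeros were in Olig1-Gnas 2 and 4, as those of Pcp2 were, and the tables print its locus together with Chtf18. Prkg1, the cGMP-dependent kinase of long-term depression, lost least of the group, at 0.610 to 1.86 FPKM in Olig1-Gnas (median 1.13) and 1.16 to 4.95 FPKM in hGFAP-Gnas (median 1.71), against 6.95, 5.39 and 6.28 FPKM in Ctrl. Gng13 and Prkg1 were called lower in both knockouts, with log2 differences of -5.74 and -1.79 in Olig1-Gnas and -2.82 and -1.27 in hGFAP-Gnas.

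The 3 calcium channel genes were lower in both knockouts, and the P/Q-type channel the least of them. Cacna1a, which encodes that channel and is also expressed by granule neurons, stood at 6.11 to 34.5 FPKM in Olig1-Gnas (median 11.4) and 11.9 to 96.8 FPKM in hGFAP-Gnas (median 23.5), against 86.0, 80.8 and 79.9 FPKM in Ctrl. hGFAP-Gnas 1, at 96.8 FPKM, lay above every Ctrl library and the other 7 below. Cacna1g, the T-type channel Cav3.1, stood at 0.252 to 13.1 FPKM in Olig1-Gnas and 2.47 to 39.5 FPKM in hGFAP-Gnas, against 57.0 to 67.2 FPKM in Ctrl. Cacna2d2, the auxiliary subunit whose loss gives the ducky mouse, stood at 0.329 to 10.7 FPKM in Olig1-Gnas and 2.31 to 43.8 FPKM in hGFAP-Gnas, against 43.7 to 50.4 FPKM in Ctrl. hGFAP-Gnas 1 reached the lowest Ctrl library of Cacna2d2, and Cacna1g did not overlap. As a share of Ctrl, both Cacna1g and Cacna2d2 were below Cacna1a in all 16 knockout libraries. The log2 differences of Cacna1a, Cacna1g and Cacna2d2 were -2.61, -3.91 and -3.87 in Olig1-Gnas and -1.64, -2.27 and -2.35 in hGFAP-Gnas, all called.

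The 6 transcription factors split into 3 that were lower (Skor2, Lhx5 and Rora) and 3 that were not (Lhx1, Ebf1 and Foxp2). Skor2, a corepressor needed for Purkinje cell maturation, was listed at 0 in Olig1-Gnas 1 to 4 and reached 0.930 FPKM in the others, and stood at 0.102 to 3.76 FPKM in hGFAP-Gnas, against 7.05, 5.73 and 3.99 FPKM in Ctrl. Its log2 difference was -2.44 ± 0.27 in Olig1-Gnas (adjusted p = 1.31e-05) and -1.75 ± 0.49 in hGFAP-Gnas (adjusted p = 0.0199). The Olig1-Gnas call of Skor2 is no separate support, as it passed the filter there only through its Ctrl levels. Rora, the nuclear receptor mutated in staggerer mice (chr9:68501608-69226835), stood at 1.65 to 7.77 FPKM in Olig1-Gnas (median 3.81) and at 1.86 to 29.0 FPKM in hGFAP-Gnas (median 5.38), against 47.7, 39.9 and 53.2 FPKM in Ctrl. The groups were well apart, and the log2 difference was -3.36 ± 0.31 in Olig1-Gnas (adjusted p = 3.02e-06) and -2.51 ± 0.68 in hGFAP-Gnas (adjusted p = 0.0187). In Olig1-Gnas 7 and 8 it held 11.3% and 8.14% of the Ctrl mean, the lowest share of any member there, while the median member held 20.3% and 23.2%.

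Lhx1 and Lhx5, LIM-homeodomain paralogs that act together in early Purkinje differentiation, went in opposite directions in Olig1-Gnas. Lhx1 lies at chr11:84332880-84339036 and Lhx5 at chr5:120881894-120891466. Lhx5 was listed at 0 in Olig1-Gnas 1 to 3, stood at 0.0501 to 1.62 FPKM in the other 5, and at 0.244 to 4.90 FPKM in hGFAP-Gnas (median 1.12), against 10.96, 10.3 and 7.55 FPKM in Ctrl. Lhx1 stood at 23.4 to 52.2 FPKM in Olig1-Gnas (median 37.0) and at 18.2 to 62.1 FPKM in hGFAP-Gnas (median 47.5), against 23.7, 23.5 and 20.9 FPKM in Ctrl. Lhx5 was below Ctrl in all 16 knockout libraries, and Lhx1 was above every Ctrl library in 7 Olig1-Gnas libraries and 6 from hGFAP-Gnas. Lhx5 had a log2 difference of -2.99 ± 0.33 in Olig1-Gnas (adjusted p = 1.34e-05) and -2.19 ± 0.48 in hGFAP-Gnas (adjusted p = 0.0101). In Olig1-Gnas, Lhx5 passed the filter on low values only through its Ctrl levels, so its call there is no separate support. Lhx1 was called higher in Olig1-Gnas (0.69 ± 0.24, adjusted p = 0.0249) and not called in hGFAP-Gnas (0.78 ± 0.35, adjusted p = 0.0964). The Lhx1 call held in 15 of 23 alternative settings and was lost without any 1 of the Ctrl libraries (adjusted p = 0.0586, 0.0614 and 0.0883) and under both rescalings. The FPKM ratio of Lhx5 to Lhx1 was 0 to 0.0524 in Olig1-Gnas, 0.00538 to 0.246 in hGFAP-Gnas and 0.361 to 0.462 in Ctrl.

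Ebf1 (chr11:44431635-44818674), a factor expressed in Purkinje cells of particular zones and in other cell types, was the member most steadily higher in Olig1-Gnas. It stood at 31.2 to 61.4 FPKM in Olig1-Gnas (median 53.0) and 17.5 to 58.0 FPKM in hGFAP-Gnas (median 47.3), against 21.0, 19.5 and 22.7 FPKM in Ctrl. All 8 Olig1-Gnas libraries lay above Ctrl, as did 6 of 8 hGFAP-Gnas libraries. Its log2 difference was 1.18 ± 0.19 in Olig1-Gnas (adjusted p = 0.000194), called in all 23 alternative settings, and 0.82 ± 0.36 in hGFAP-Gnas (adjusted p = 0.0907). Within hGFAP-Gnas, the exceptions for both Lhx1 and Ebf1 were libraries 1 and 2, at 19.9 and 18.2 FPKM of Lhx1 and 19.3 and 17.5 FPKM of Ebf1. In those libraries the progenitor and proliferation genes summed to 121 and 1273 FPKM, beside 949 to 2372 FPKM in the other 6 hGFAP-Gnas libraries. Lhx1 also lay within its Ctrl range in Olig1-Gnas 6, at 23.4 FPKM, where the progenitor and proliferation genes summed to 2191 FPKM. The part of these genes in the Lhx1 and Ebf1 levels was not tested.

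Foxp2, a forkhead factor of Purkinje cells, stood at 1.43 to 9.90 FPKM in Olig1-Gnas (median 5.49) and at 4.58 to 12.03 FPKM in hGFAP-Gnas (median 7.12), against 2.25, 1.84 and 1.92 FPKM in Ctrl. Every hGFAP-Gnas library was above Ctrl, and the Olig1-Gnas libraries divided into 4 at 8.03 to 9.90 FPKM and 4 at 1.43 to 2.95 FPKM. It was called higher in hGFAP-Gnas (log2 difference 1.41 ± 0.24, adjusted p = 0.00677) and not in Olig1-Gnas (0.94 ± 0.46, adjusted p = 0.0990). The difference between knockouts was -0.48 ± 0.31 (adjusted p = 0.344).

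**Figure D2:**
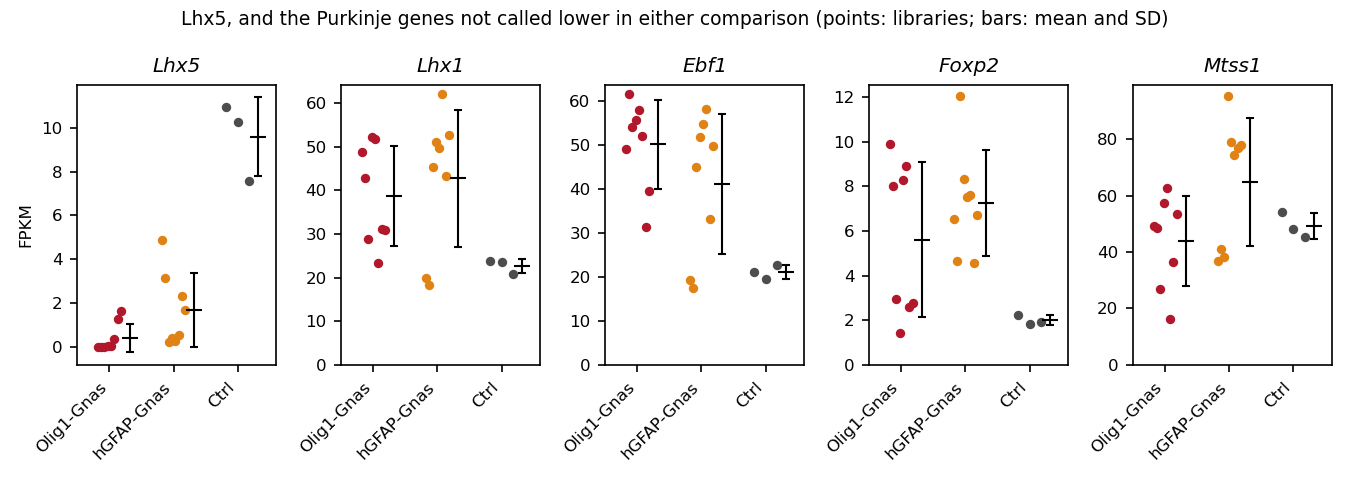
FPKM of Lhx5, Lhx1, Ebf1, Foxp2 and Mtss1 in every library (points; red, Olig1-Gnas; orange, hGFAP-Gnas; grey, Ctrl), with mean and SD as bars, on linear axes that differ between panels. Lhx5 is below Ctrl in all 16 knockout libraries while Lhx1 and Ebf1 lie above Ctrl in most, except hGFAP-Gnas 1 and 2; several Lhx5 points at 0 in Olig1-Gnas may be failed estimates.

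The remaining members belong to transport, pH control, synaptic release and the cell surface. Slc1a6, the Purkinje glutamate transporter EAAT4, stood at 0.288 to 29.7 FPKM in Olig1-Gnas (median 1.54) and 3.37 to 47.0 FPKM in hGFAP-Gnas (median 19.9), against 131, 152 and 104 FPKM in Ctrl. Its log2 difference was -5.04 ± 0.95 in Olig1-Gnas (adjusted p = 0.000919) and -2.93 ± 0.76 in hGFAP-Gnas (adjusted p = 0.0158). Car7, a cytosolic carbonic anhydrase, was the member kept least in hGFAP-Gnas 1, at 25.6% of Ctrl, and in hGFAP-Gnas 8, at 15.3%. It stood at 0.190 to 11.05 FPKM in Olig1-Gnas and 1.59 to 13.3 FPKM in hGFAP-Gnas, against 40.0 to 66.8 FPKM in Ctrl. Doc2b, a calcium sensor of vesicle release, stood at 1.39 to 7.93 FPKM in Olig1-Gnas and 0.880 to 20.8 FPKM in hGFAP-Gnas, against 33.7 to 39.5 FPKM in Ctrl. Car7 and Doc2b did not overlap Ctrl in either knockout, and both were called lower in each (log2 differences -4.17 and -3.17 in Olig1-Gnas, -2.93 and -2.44 in hGFAP-Gnas).

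Dner, a transmembrane Notch ligand through which Purkinje cells act on Bergmann glia, stood at 14.1 to 64.4 FPKM in Olig1-Gnas (median 31.3) and 43.3 to 168 FPKM in hGFAP-Gnas (median 76.0), against 244, 214 and 166 FPKM in Ctrl. Only hGFAP-Gnas 1 overlapped Ctrl. The log2 difference was -2.63 ± 0.35 in Olig1-Gnas (adjusted p = 5.26e-05) and -1.39 ± 0.41 in hGFAP-Gnas (adjusted p = 0.0241). Mtss1, which bends membranes and shapes Purkinje dendrites and spines, was called in neither comparison. It stood at 16.3 to 62.9 FPKM in Olig1-Gnas (median 48.9) and 36.8 to 95.4 FPKM in hGFAP-Gnas (median 75.6), against 54.3, 48.0 and 45.3 FPKM in Ctrl, with log2 differences of -0.26 ± 0.34 in Olig1-Gnas (adjusted p = 0.524) and 0.31 ± 0.31 in hGFAP-Gnas (adjusted p = 0.425). Knockout libraries lay on both sides of Ctrl.

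**Figure D3:**
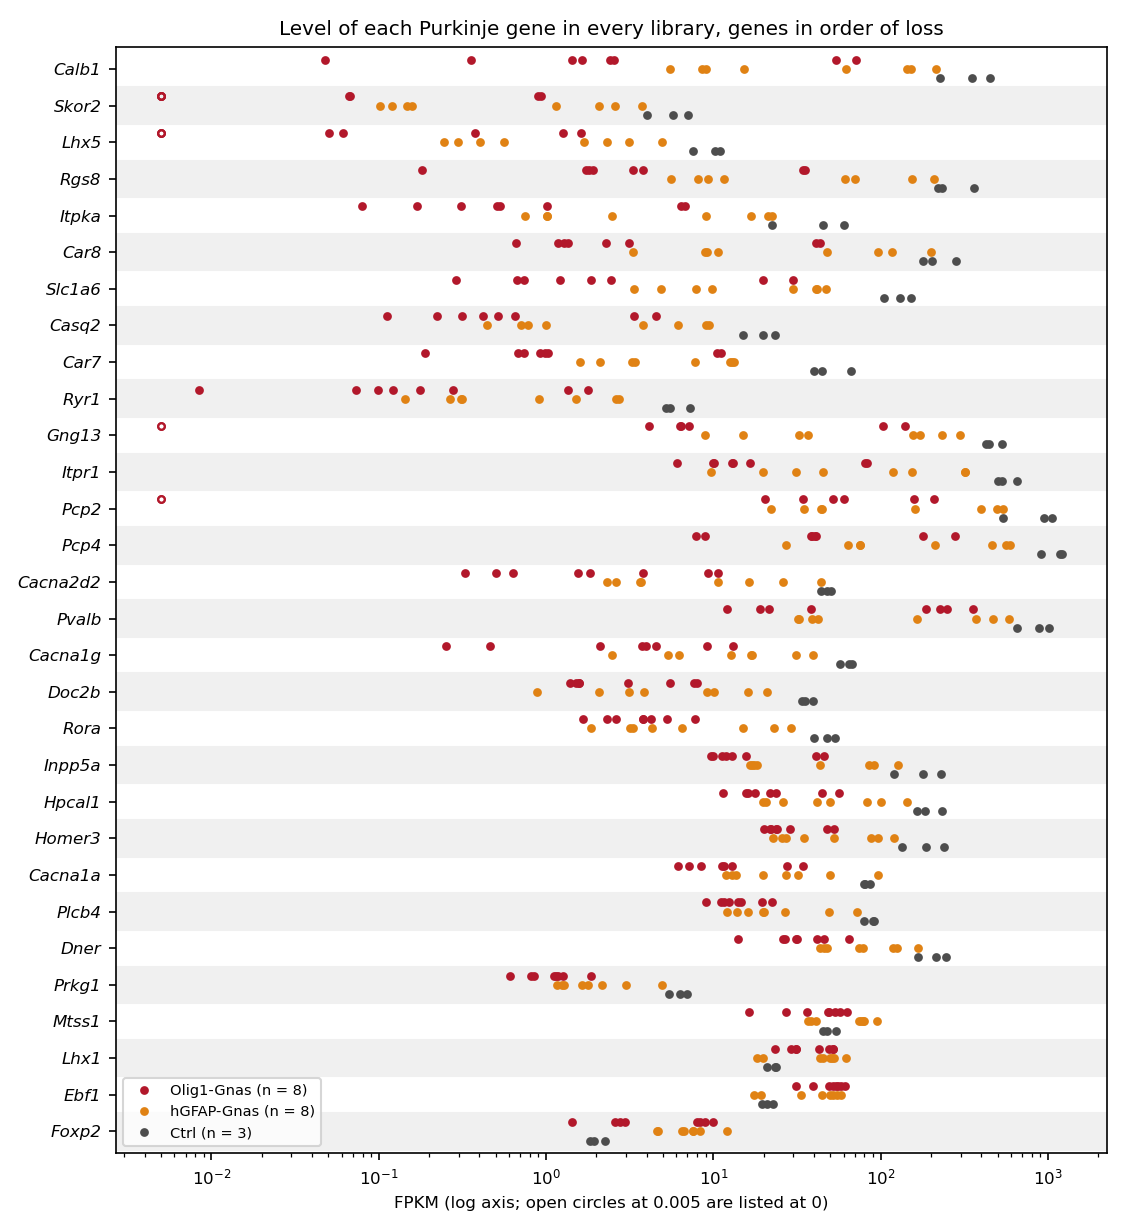
FPKM of the 30 Purkinje genes in every library on a log axis (red, 8 Olig1-Gnas; orange, 8 hGFAP-Gnas; grey, 3 Ctrl libraries, with the Ctrl values of the table of Olig1-Gnas), genes from the lowest to the highest median rank of retained share. Open circles at 0.005 mark values listed at 0, which occur for Pcp2, Gng13, Lhx5 and Skor2 in Olig1-Gnas 1 to 4 only. These are the shallowest libraries, at 0.275 to 0.299 times the depth of Ctrl 2. The orange points are spread more widely than the grey ones for most genes.

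To set the members in an order of loss, each FPKM was divided by the mean Ctrl FPKM of its own table, and the 30 retained shares were ranked within each of the 16 knockout libraries. Calb1 had the lowest median rank, 4, and was among the 10 lowest in 14 libraries. Skor2 (median rank 4.5), Lhx5 (5.5), Rgs8 (6), Itpka (8), Car8 (8.5), Slc1a6 (9.5) and Casq2 (10) followed. Homer3, Cacna1a, Plcb4, Dner and Prkg1 kept the most among the members called lower in Olig1-Gnas, with median ranks of 21.5, 23, 23, 24.5 and 25. Of these, Homer3, Dner and Prkg1 share a printed locus with other genes. Mtss1, Lhx1, Ebf1 and Foxp2 closed the order at 27, 28, 29 and 30.

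The order was not the same in every library or knockout. Skor2 and Lhx5 each had a median rank of 2.75 in Olig1-Gnas, and of 8.5 and 7.5 in hGFAP-Gnas, whereas Calb1 had 4 in both. The zeros of Skor2 and Lhx5 all lay among Olig1-Gnas 1 to 4, the shallowest libraries. The part of depth in these ranks was not tested. Pvalb stood at 17.5 in Olig1-Gnas and 8.5 in hGFAP-Gnas, and Gng13 at 7 in Olig1-Gnas and 14.5 in hGFAP-Gnas. Calb1 ranged from rank 1 to 18 over libraries, and Car8 from 1 to 26, while Inpp5a kept to ranks 15 to 23. With 1 FPKM added to library and Ctrl values alike, 5 of the 10 lowest members (Calb1, Rgs8, Itpka, Car8 and Slc1a6) stayed among the 10 lowest, and Skor2, Lhx5, Casq2, Car7 and Ryr1 did not.

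Libraries of one knockout differed in how much they kept. The median member held 5.13, 5.14, 2.72, 1.07, 3.23, 3.98, 20.3 and 23.2% of its Ctrl mean in Olig1-Gnas 1 to 8, and 62.6, 39.1, 3.86, 6.26, 6.81, 7.92, 49.6 and 24.9% in hGFAP-Gnas 1 to 8. In 10 of the 16 libraries, 6 Olig1-Gnas and 4 hGFAP-Gnas, the median member was under 10%. Summed over the 30 members, FPKM was 289 to 1571 in Olig1-Gnas (median 502) and 449 to 3684 in hGFAP-Gnas (median 1127), against 4902, 6283 and 7288 in Ctrl. hGFAP-Gnas 1, which kept most, was also the library with the lowest progenitor sum of either knockout. With the knockouts pooled, both depth classes held libraries that kept little and libraries that kept more. Olig1-Gnas 5 and 6 and hGFAP-Gnas 3 and 4 are deeper libraries under 10%, and hGFAP-Gnas 7 and 8 are shallower ones at 49.6 and 24.9%. Within Olig1-Gnas, however, the shallower libraries 1 to 4 were all under 10%, and libraries 7 and 8, which kept more, are deeper. The part of depth in these shares was not tested.

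**Figure D4:**
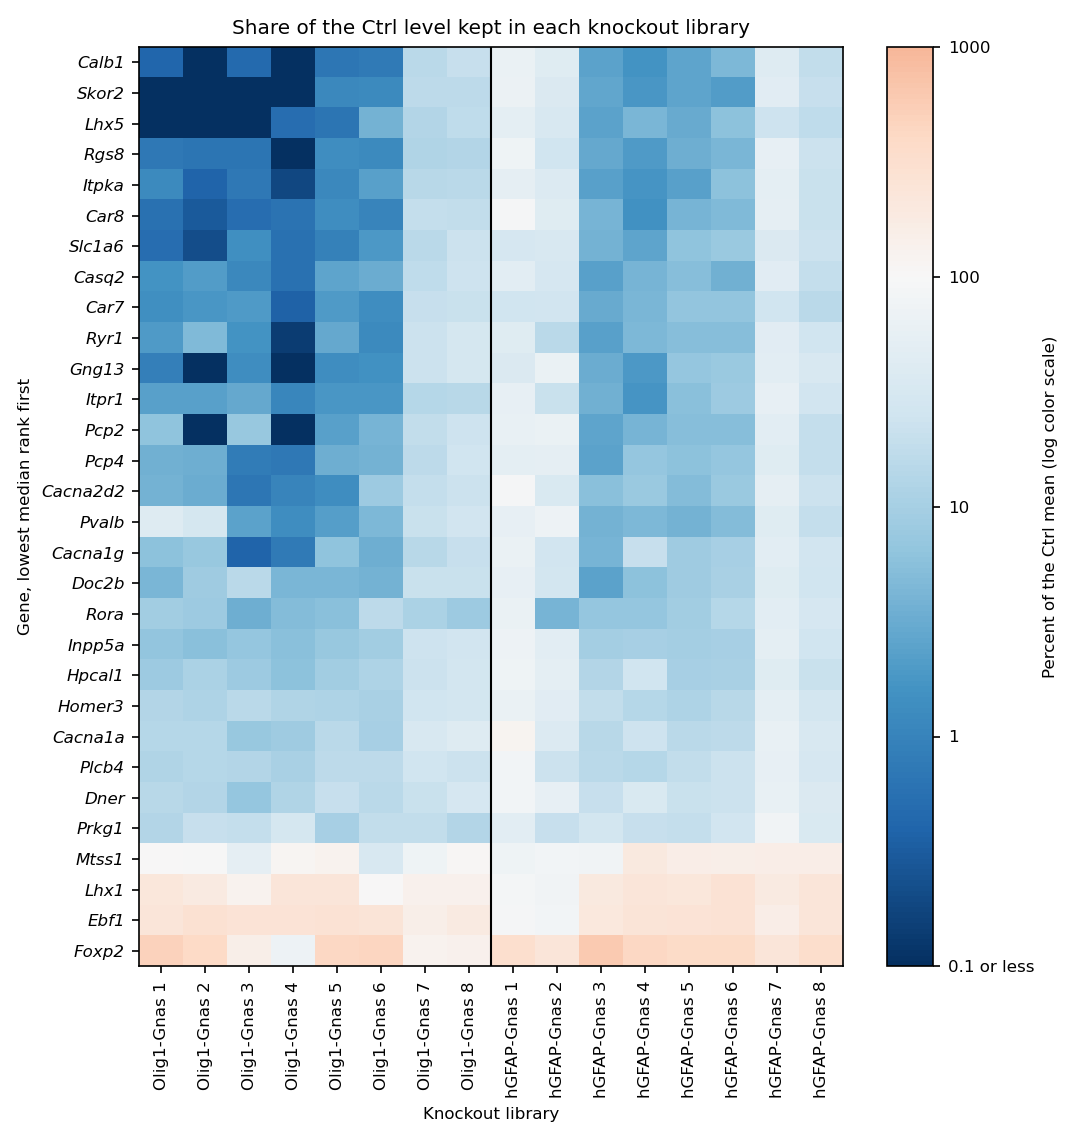
Share of the Ctrl mean kept by each Purkinje gene (rows) in each of the 16 knockout libraries (columns; Olig1-Gnas left of the line, hGFAP-Gnas right), in percent on a log color scale where blue is below and red above 100%. Columns Olig1-Gnas 1 to 6 and hGFAP-Gnas 3 to 6 are dark for most rows, and the 4 bottom rows (Mtss1, Lhx1, Ebf1, Foxp2) are red or pale in nearly all columns.

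The relation of retained share to transcript length differed between libraries. In hGFAP-Gnas 2, Rora (longest annotated transcript 10878 bases) held 3.96% of Ctrl, Ryr1 (15358 bases) 15.2% and Itpr1 (9870 bases) 21.1%, while Pcp4 (641 bases) held 53.6%, Gng13 (719 bases) 63.5% and Pvalb (977 bases) 69.0%. In hGFAP-Gnas 7, Rora, Ryr1 and Itpr1 held 49.4, 45.8 and 56.9%, and Pcp4, Gng13 and Pvalb 42.2, 49.4 and 43.5%. Long genes were the low ones in library 2, and library 7 leaned the other way. Over the 30 members Spearman's rho of length with retained share was -0.48 in hGFAP-Gnas 2, 0.52 in hGFAP-Gnas 7, 0.50 in hGFAP-Gnas 8, 0.38 in hGFAP-Gnas 1 and -0.19 to 0.33 in the other 12 knockout libraries, given as a description of genes within 1 library. Leaving out Mtss1, Lhx1, Ebf1 and Foxp2, it was -0.75 in hGFAP-Gnas 2, -0.39 in Olig1-Gnas 8 and 0.50 in hGFAP-Gnas 7. Over 13135 genes with a length, the upper quartile of length differed from the lower one by -0.91 (log2) in hGFAP-Gnas 2, by -0.45 to 0.12 in the other knockout libraries and by -0.13 to 0.18 in Ctrl. The part of length in the Rora level of 1.86 FPKM and in other long members of that library was not tested. Without hGFAP-Gnas 2, 26 members were called lower, beside 2120 of 14218 tested genes. With it, 25 members and 1832 of 14305 tested genes were.

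**Figure D5:**
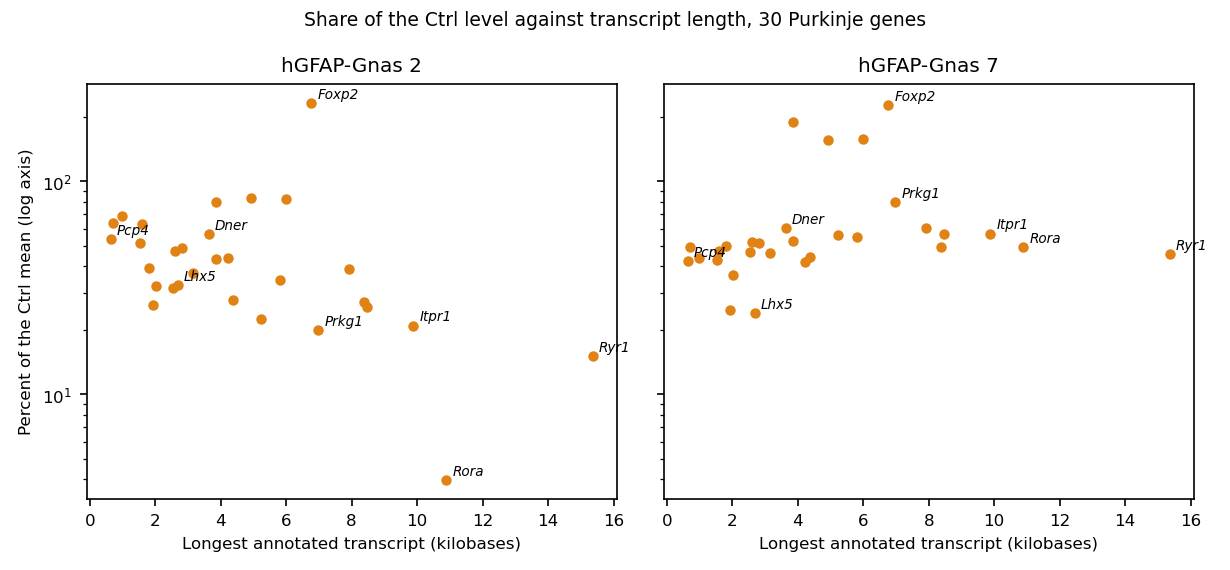
Retained share of the 30 Purkinje genes in percent of the Ctrl mean (log axis) against the longest annotated transcript in kilobases, in hGFAP-Gnas 2 (left) and hGFAP-Gnas 7 (right), 1 point per gene. Long genes such as Rora, Ryr1 and Itpr1 lie lowest on the left, at 3.96, 15.2 and 21.1%, and at 49.4, 45.8 and 56.9% on the right.

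Set directly against hGFAP-Gnas, Olig1-Gnas had 0 of the 30 members called with limma, where 0.41% of 14386 tested genes were called (0.264% lower and 0.146% higher). At an unadjusted p under 0.05 there were 20 members, beside 23.7% of all tested genes. The difference was negative in 29 of 30, Ebf1 being the exception, with a median of -1.01 beside 0.01 over all tested genes. The size of that median depended on the setting. Y-linked signal was in 2 Olig1-Gnas and 7 hGFAP-Gnas libraries, and with it as a term the members' median was -0.57. The median was -0.76 in the deeper libraries alone (29 members) and -1.53 in the shallower ones (27 members). The lowest adjusted p belonged to Dner, with a log2 difference of -1.24 ± 0.32 (95% interval -1.91 to -0.57, adjusted p = 0.0904). Its values were 14.1 to 64.4 FPKM in Olig1-Gnas and 43.3 to 168 FPKM in hGFAP-Gnas, which overlap. Calb1 differed by -2.84 (95% interval -5.06 to -0.62, adjusted p = 0.165), and Pvalb by -0.65 (95% interval -2.55 to 1.24, adjusted p = 0.672).

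Genes of the same pathways outside the 30 members were mostly lower, in lists chosen with earlier results of these data known. These lists are therefore no separate support for the members' result. Beside the counts here and for the zonal and Rora-linked genes below, 23.6% of all tested genes were called lower in Olig1-Gnas. In hGFAP-Gnas that share was 12.8%. Of 33 tested genes of glutamate and calcium signaling, 29 were called lower and 1 higher in Olig1-Gnas, with a median difference of -1.75, and 19 lower and 1 higher in hGFAP-Gnas, with a median of -1.21. Atp2a3, a calcium pump of the endoplasmic reticulum, differed by -4.40 in Olig1-Gnas and -2.85 in hGFAP-Gnas on the log2 scale. Atp2a3 was called lower in both knockouts. Of 21 tested excitability channels, 18 were called lower and 1 higher in Olig1-Gnas and 12 lower and 1 higher in hGFAP-Gnas. Of 29 other Purkinje genes, 22 were lower and 1 higher in Olig1-Gnas, and 16 lower and 1 higher in hGFAP-Gnas. They included Arhgef33 (-4.75 in Olig1-Gnas, -2.74 in hGFAP-Gnas) and Olfm3 (-4.62 in Olig1-Gnas, -3.21 in hGFAP-Gnas).

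Genes of Purkinje zones, the stripes of the cerebellar cortex, gave 11 lower and 1 higher of 15 tested in Olig1-Gnas, and 6 lower and 2 higher in hGFAP-Gnas; this list includes the members Slc1a6 and Plcb4. Aldoc, the classic stripe marker and also a gene of Bergmann glia and astrocytes, averaged 203 ± 202 FPKM in Olig1-Gnas (SD, n = 8) and 477 ± 413 FPKM in hGFAP-Gnas (SD, n = 8), against 1521 ± 403 FPKM in Ctrl (SD, n = 3), and was called lower in both (limma adjusted p = 0.0143 in Olig1-Gnas and 0.0433 in hGFAP-Gnas). Of 9 genes that are nuclear receptors akin to Rora or are linked to it, 8 were lower in Olig1-Gnas, and 4 lower and 1 higher in hGFAP-Gnas. Nr1d1, a repressor that shares DNA sites with Rora, averaged 15.2 ± 11.3 FPKM in Olig1-Gnas (SD, n = 8), against 91.1 ± 11.7 FPKM in Ctrl (SD, n = 3), a log2 difference of -2.81 (limma adjusted p = 0.00105). Nr1d1 was among the 8 called lower in Olig1-Gnas. Shh, the mitogen that Purkinje cells release to granule cell precursors, averaged 0.182 ± 0.211 FPKM in Olig1-Gnas (SD, n = 8) and 0.556 ± 0.577 FPKM in hGFAP-Gnas (SD, n = 8), against 2.21 ± 0.90 FPKM in Ctrl (SD, n = 3). It was called lower in both, with differences of -1.41 in Olig1-Gnas (limma adjusted p = 0.000140) and -1.08 in hGFAP-Gnas (limma adjusted p = 0.0241). In Olig1-Gnas, Shh passed the filter on low values only through its Ctrl levels, so that its call there is no support for the count of 8.

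Markers of mature granule neurons and interneurons were mostly called lower too, while most oligodendrocyte and astrocyte genes were not called lower in hGFAP-Gnas. Those 2 lists still had median differences of -1.41 and -0.81 there, beside 0.19 over all tested genes. Of all tested genes, 23.6% were called lower and 36.2% higher in Olig1-Gnas, and 12.8% lower and 26.1% higher in hGFAP-Gnas. Of 16 mature granule neuron genes, 15 were called lower in Olig1-Gnas (median difference -4.09) and 12 in hGFAP-Gnas (median -2.51), medians at least as far below 0 as those of the 30 members. Of 14 inhibitory interneuron genes, 10 were lower in Olig1-Gnas and 9 in hGFAP-Gnas, and of 13 mature oligodendrocyte genes, 12 in Olig1-Gnas and 3 in hGFAP-Gnas. Whether the counts of the oligodendrocyte list differ between the knockouts was not tested. Of 14 Bergmann glia and astrocyte genes, 9 were lower and 1 higher in Olig1-Gnas, and 5 lower and 2 higher (Gfap, 3.05, and Slc6a11, 1.90) in hGFAP-Gnas, where 7 were not called. In the other direction, all 15 progenitor and proliferation genes were called higher in both knockouts, as were 12 of 15 microglia and macrophage genes in Olig1-Gnas and 14 in hGFAP-Gnas. Of 12 vascular genes, 1 was higher and 2 lower in Olig1-Gnas and 1 higher in hGFAP-Gnas, and of 7 choroid plexus genes 1 was higher in Olig1-Gnas and 0 were called in hGFAP-Gnas. A shift in cell makeup and a change within Purkinje cells cannot be told apart in these samples, and their parts in the members' levels were not tested.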

How the data were processed

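RNA was taken up in Trizol, purified on RNeasy columns and made into TruSeq libraries, per the labels. The deposited values are FPKM, made by the authors with TopHat and Cufflinks on mm9, per the submitters' processing notes. There was 1 table per knockout, each with the 3 Ctrl libraries; Ctrl 2 and 3 were identical between tables, and Ctrl 1 differed by at most 0.451% in any of the 30 members, so the knockouts were also compared directly. Versions, strandedness and read totals are not given in the sources used here. A value of exactly 0 may mean a failed estimate.

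Testing took the genes that reached 1 FPKM in 3 or more libraries of a comparison, on log2(FPKM + 1) with limma 3.58.1 (R 4.3.3), with trend and robust moderation and no further scaling. P-values were adjusted by Benjamini-Hochberg over all tested genes and called under 0.05; differences carry their standard errors. The test was checked on simulated data with planted changes. The simulation drew genes independently, with the same SD in both groups and few changed genes. It does not cover data where many genes are called or where spread differs between groups, as it does here. Depth relative to Ctrl 2 came from the steps of values under 0.5 FPKM, with 0.6 parting the deeper from the shallower libraries.

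The members and gene lists were chosen with earlier results of these data known, and the lists and their medians are descriptions without a test. All 30 members are named, with a choice among the 3 called genes of largest difference in each other list, and Gnas; Ddx3y, 2900053A13Rik and Chtf18 were chosen after their values were seen. Some genes of these lists are not reported here. Transcript lengths are the longest in GENCODE M21. The labels mark 19 separate mice, so p-values measure the spread between animals. Alternatives were another offset, no filter, 2 rescalings, terms for replicate number, depth and Y-linked signal, depth classes alone, zeros as missing, 1 fit of all 19 libraries, plain moderation and leaving out each library.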

Additional observations from a re-analysis of the deposited data

How the results depend on the processing

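The count of members called lower in Olig1-Gnas against Ctrl was 26 in the main test, 17 in the shallower libraries alone, and 23 to 26 when 1 library was left out. Members called higher, 2 in the main test, were 1 after quantile normalization, after upper quartile scaling, in the deeper libraries alone, in the shallower libraries alone and in 1 fit of all 19 libraries, and 1 to 3 with a library left out. Over all genes the Olig1-Gnas calls were 5141 in the shallower libraries alone and 6971 to 9546 with a library left out, against 8485. For hGFAP-Gnas against Ctrl, 25 members were called lower in the main test, 0 in the deeper libraries alone, 0 in the shallower libraries alone, and 1 to 26 with a library left out; members called higher were 0 in the deeper libraries, 3 in the shallower libraries, 2 in 1 fit of all 19 libraries and 1 to 3 with a library left out. All-gene calls for hGFAP-Gnas were 6 in the deeper and 2277 in the shallower libraries, and 818 to 8164 with a library left out, against 5570. Without the filter on low values, and with depth class as a term, Pcp2, Calb1, Pvalb, Rgs8, Gng13, Itpka and Cacna1a lost their hGFAP-Gnas calls, with adjusted p-values of 0.0509 to 0.0632. The shallower libraries hold only Ctrl 3 from the Ctrl group, and the deeper ones only Ctrl 1 and 2. In the shallower Olig1-Gnas fit 23 members were tested.

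Olig1-Gnas against hGFAP-Gnas gave 59 calls over all genes, 166 with depth class as a term, 3 in the deeper libraries alone, 3 with Y-linked signal as a term, 178 in 1 fit of all 19 libraries and 11 to 104 with a library left out. Members called lower were 1, Dner, with depth class as a term and 1 in the fit of all 19 libraries, and 0 with a library left out; members called higher were 0 with a library left out. Mtss1 turned to -0.071 in hGFAP-Gnas in the deeper libraries, and Lhx1 to 0.11 between knockouts in the deeper libraries, 0.0073 without Olig1-Gnas 6 and 0.0052 without hGFAP-Gnas 6, and stood at -0.24 to 0.0073 over all libraries left out. Rescaling moved the median of all genes to 0.06 (quantile) and 0.05 (upper quartile) for Olig1-Gnas, with 50.6 and 51.7% of calls higher against 60.5%, and to -0.01 and 0.06 for hGFAP-Gnas, with 49.0 and 57.2% higher against 67.1%. Of the 10 members with the lowest ranks of retained share, 5 stayed with 1 FPKM added, and 9 to 10 with a Ctrl library left out.

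Replicate numbers are not stated to pair the mice. Deviations of same-numbered libraries correlated at -0.18, -0.14 and 0.05 (Olig1-Gnas and Ctrl) and at 0.03, 0.12 and -0.10 (hGFAP-Gnas and Ctrl). Between knockouts they correlated at -0.17 to 0.25. Correlations over so few libraries cannot exclude a pairing. With the replicate number as a block, hGFAP-Gnas calls were 0 over all genes, 0 members lower and 0 higher, Mtss1 turned to -0.34, the Olig1-Gnas call of Pcp2 was lost (adjusted p = 0.0598), and 25 genes were called between knockouts. With zeros as missing, Pcp2 differed by -3.63 in Olig1-Gnas. In the block fits against Ctrl, only replicate numbers 1 to 3 occur in both groups, so the difference there rests on those libraries alone. The loss of calls under the block is therefore no evidence of a pairing. The cause of the changes under the block and with zeros as missing was not tested.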
